A study of Homo sapiens with 40 samples.

Results

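The proteasome subunit genes were taken as all genes of the count table whose symbol is PSM, a letter from A to G and a number. The rule found 48 genes of 62263. Of these, 46 passed the filter on low counts that left 16735 genes for testing. The other 2 were PSMA8, a 20S α subunit of the testis, listed at 0 counts in all 40 libraries, and PSMB11, a 20S β subunit of the thymus, with at most 3 counts in any library.

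The cells were BEAS-2B, an immortalised human bronchial epithelial line, and the assay was Frac-seq, in which RNA of the whole lysate (input) and RNA that sediments with polyribosomes (polysome) are sequenced side by side. One line carried a constitutive control hairpin (shControl, named siC in the titles) and the other a constitutive hairpin against IGF2BP3, an RNA-binding protein (shIGF2BP3, named siIGF2BP3 in the titles). Each was grown in RPMI with 10% FBS, starved overnight in medium with 2% serum, and either left unstimulated or given IL-13, a type 2 cytokine, at 100 ng/ml and harvested 24 h later. The 2 lines, 2 treatments and 2 fractions gave 8 groups of 5 libraries. With 1 line per hairpin, the hairpin's effect and other properties of a line cannot be told apart. Nothing in the labels says that the 5 libraries of a group came from separate cultures, and the p-values then measure only the spread between these libraries.

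The proteasome is the protease that breaks down ubiquitin-tagged proteins. Its 20S core is a barrel of 2 outer α rings (PSMA genes) and 2 inner β rings (PSMB genes), and the 19S regulatory particle at its ends binds ubiquitin chains and unfolds the substrate with a ring of ATPases (PSMC genes) and a set of non-ATPase subunits (PSMD genes). Interferon-inducible β subunits can replace the constitutive catalytic ones to form the immunoproteasome, which changes the peptides available for MHC class I. Other activators can cap the core in place of the 19S particle (PSME genes), PSMF1 encodes an inhibitor, and dedicated chaperones assemble the core (PSMG genes). NFE2L1 is the transcription factor known to raise the subunit genes together when proteasome activity falls, through antioxidant response elements in their promoters.

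Total counts ran from 14044352 to 40441061 in input and from 1816848 to 34082191 in polysome. 3 polysome libraries of the knockdown line held under 5000000 counts: unstimulated 1 and 5, and IL-13 5. Libraries numbered 1 of the unstimulated control were known from earlier results to differ from the rest in some other genes. Calls of named members and medians of the line effects that change without these libraries are given both ways where they are described. IGF2BP3 itself was at 11.2 ± 4.65 TPM (reads per transcript length, scaled to the library; SD, n = 5) in unstimulated control input and at 8.12 ± 1.36 TPM in the knockdown line, and the difference was called in neither fraction or treatment (lowest log2 value -0.50, adjusted p = 1 by edgeR's quasi-likelihood test). The targeted mRNA thus did not set the libraries labelled knockdown apart past the threshold. The keratins KRT8 (722 TPM), KRT18 (547 TPM), KRT17 (465 TPM) and KRT7 (133 TPM) were abundant. KRT19 was at 25.4 TPM, while KRT5 (0.108 TPM) and the epithelial junction genes EPCAM and CDH1 were under 1 TPM (0.579 and 0.455). Among the mesenchymal markers, VIM (1259 TPM), COL1A1 (134 TPM) and FN1 (84.4 TPM) were also abundant. Values of CDH2, COL3A1, PDGFRA and TP63, and of airway secretory, ciliated and endothelial markers, are not given here, so the markers shown are a selection. The leukocyte markers PTPRC and CD3E were at 0, and the myeloid markers CD14 and CD68 at 17.2 and 7.92 TPM. In the bulk samples, fewer cells of a type and less RNA per cell cannot be told apart.

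To show where members that moved together and members that did not are transcribed from, promoter windows of 250 bases before to 50 after the start are given for 4 members: PSMB3 and PSMD13, which with PSMB7 had the highest median correlation with the other members in input, and PSME4 and PSMD12, the 2 with the lowest. The windows are from RefSeq (GRCh38.p14), 5′ to 3′ along the gene, and capitals mark the core of the antioxidant response element, TGACNNNGC on either strand.

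PSMB3 (chr17:38752491-38752790, plus strand): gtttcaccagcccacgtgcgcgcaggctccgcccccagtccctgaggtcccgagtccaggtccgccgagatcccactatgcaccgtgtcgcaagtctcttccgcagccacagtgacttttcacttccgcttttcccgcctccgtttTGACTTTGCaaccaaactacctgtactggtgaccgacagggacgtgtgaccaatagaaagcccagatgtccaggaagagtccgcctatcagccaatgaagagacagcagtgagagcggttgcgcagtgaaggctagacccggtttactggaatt

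PSMD13 (chr11:236726-237025, plus strand): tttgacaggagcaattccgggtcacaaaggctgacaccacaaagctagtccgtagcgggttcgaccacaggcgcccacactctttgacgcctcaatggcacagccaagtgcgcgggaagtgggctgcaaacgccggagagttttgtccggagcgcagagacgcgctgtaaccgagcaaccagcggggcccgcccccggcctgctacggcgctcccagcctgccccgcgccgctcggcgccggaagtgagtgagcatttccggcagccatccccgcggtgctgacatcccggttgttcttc

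PSME4 (chr2:53970944-53971243, minus strand): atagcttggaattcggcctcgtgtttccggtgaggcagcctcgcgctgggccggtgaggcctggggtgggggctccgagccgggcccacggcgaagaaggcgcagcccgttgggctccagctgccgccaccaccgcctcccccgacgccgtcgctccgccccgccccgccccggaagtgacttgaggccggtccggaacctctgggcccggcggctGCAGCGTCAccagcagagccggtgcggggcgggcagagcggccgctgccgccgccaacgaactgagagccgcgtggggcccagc

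PSMD12 (chr17:67366528-67366827, minus strand): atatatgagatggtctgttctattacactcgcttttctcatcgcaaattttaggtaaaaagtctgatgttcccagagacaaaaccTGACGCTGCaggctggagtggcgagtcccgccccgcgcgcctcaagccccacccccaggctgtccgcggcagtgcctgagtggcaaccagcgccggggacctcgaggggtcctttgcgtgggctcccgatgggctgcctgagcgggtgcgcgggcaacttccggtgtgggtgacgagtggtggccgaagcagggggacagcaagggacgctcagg

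The motif was present in the windows of PSMB3, PSME4 and PSMD12 and not in that of PSMD13. Of the 48 members, 42 had a window in the table and 15 of them (35.7%) held the motif, against 4384 of 27305 genes (16.1%). A match describes the letters only, and binding was not measured.

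The subunit mRNAs were abundant and their levels differed widely from one another. In unstimulated control input they held 0.735% ± 0.0653 (SD, n = 5) of all counts, and their TPM summed to 7510 ± 378. Between genes, levels are compared as TPM, which is per transcript length. PSMA7, an α ring subunit, was highest at 643 ± 68.4 TPM, followed by the β ring genes PSMB3 (551 ± 62.6), PSMB7 (512 ± 48.2) and PSMB4 (511 ± 36.1). PSME4, which encodes the nuclear activator PA200, was the lowest tested member at 5.59 ± 2.19 TPM, below PSMA5, an α ring subunit (7.45 ± 3.27 TPM), and PSMD12, a lid subunit (14.7 ± 3.11 TPM). The highest mean was 115-fold the lowest. PSME4 encodes an activator and not a ring subunit, so equal subunit numbers in the particle do not bear on this ratio. Neighbours in the order of levels mostly overlapped: among the 45 pairs of neighbours, the libraries did not overlap only for PSMB4 over PSME1, PSMB8 over PSMD3 and PSMC6 over PSMD9.

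Within roles, the medians were 115 TPM for the 7 α ring genes, 320 TPM for the 7 constitutive β ring genes, 93.5 TPM for the 6 ATPases and 64.4 TPM for the 11 non-ATPase subunits of the 19S particle. The 5 libraries of PSMA7 were at 672, 582, 615, 596 and 749 TPM, and those of PSMA5 at 4.78, 10.0, 5.00, 5.58 and 11.9 TPM. The ring partners thus lay 86.3-fold apart in mean TPM, with no library near the other gene's range. Part of this gap comes from the transcript length assigned. Its relative value, taken from the deposited counts and TPM, was 1.54 for PSMA5 and 0.334 for PSMA7. Their coding lengths are alike (723 and 744 bases). In CPM (counts scaled to library size, not per length), the same libraries were at 14.3 to 38.2 for PSMA5 and 351 to 504 for PSMA7. The size of the gap is therefore uncertain. Among the activators, PSME1 (405 ± 24.1 TPM) and PSME2 (301 ± 58.4 TPM), the 2 chains of the interferon-inducible PA28 cap, stood above PSME3 (106 ± 12.8 TPM), the nuclear PA28γ, and PSMF1 (60.8 ± 2.36 TPM). The 20S chaperones were at 89.7 ± 5.78 TPM (PSMG2), 81.8 ± 8.66 TPM (PSMG3), 39.2 ± 2.16 TPM (PSMG4) and 27.8 ± 3.77 TPM (PSMG1). PSMD4, a ubiquitin receptor, was at 244 ± 14.0 TPM and PSMD14, the deubiquitinase of the lid, at 39.3 ± 7.62 TPM. The value of PSMC1 (69.0 ± 9.19 TPM) is uncertain, since 2 of its pseudogenes were listed at 14.3 and 11.3 TPM and reads could have been split between them.

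**Figure D1:**
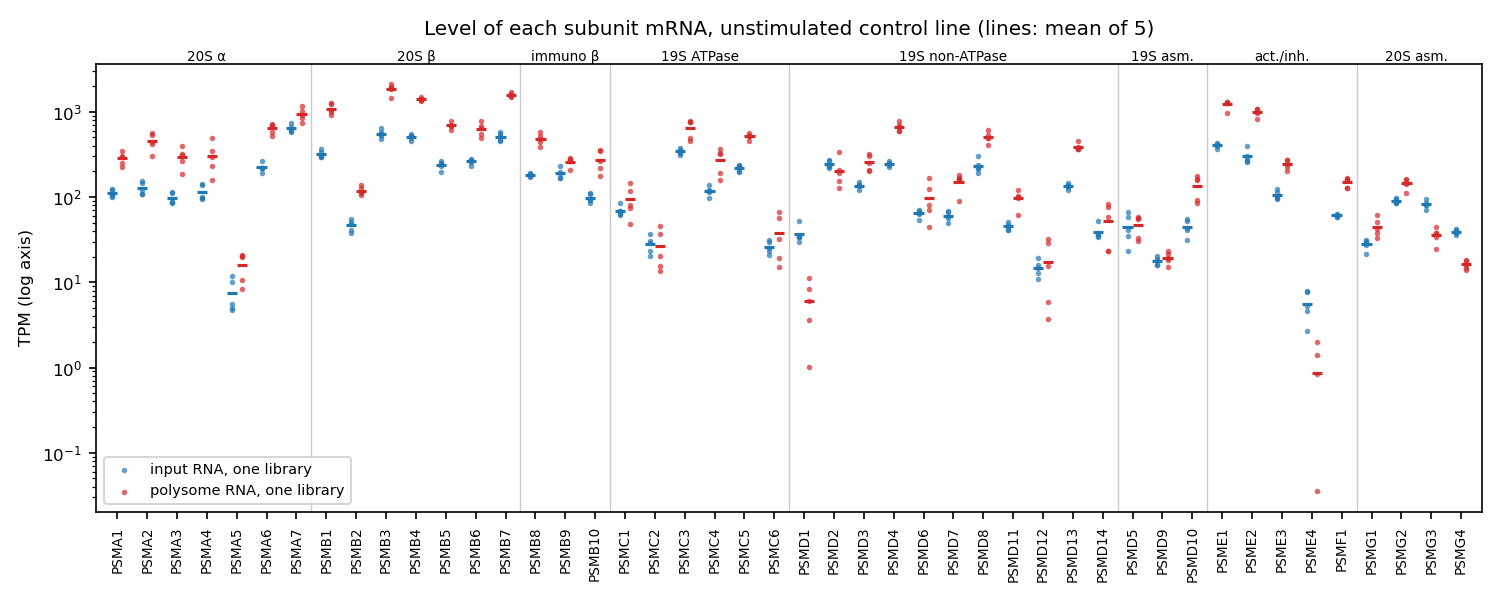
TPM of the 46 tested members in the unstimulated control line, on a log axis, grouped by role (20S α and β rings, immunoproteasome β subunits, 19S ATPases and non-ATPases, assembly chaperones, activators and inhibitor). Each point is 1 library (blue input, red polysome) and each bar the mean of 5; 1 polysome library of PSME4 is at 0 and cannot be drawn. PSMA7 is highest in input at 643 TPM and PSME4 lowest at 5.59 TPM.

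The immunoproteasome subunits were expressed without stimulation. PSMB8 (β5i) was at 179, 185, 170, 191 and 180 TPM in unstimulated control input, PSMB9 (β1i) at 185, 168, 166, 231 and 199 TPM, and PSMB10 (β2i) at 92.5, 84.6, 108, 112 and 91.9 TPM. Their constitutive partners PSMB5 (β5), PSMB6 (β1) and PSMB7 (β2) were at 238 ± 26.6, 261 ± 18.0 and 512 ± 48.2 TPM. As a share of each pair's TPM, PSMB8 held 43.3% ± 2.94 (SD, n = 5), PSMB9 42.0% ± 2.23 and PSMB10 16.1% ± 2.35. In IL-13 control input the shares were 43.2% ± 3.32, 43.3% ± 3.93 and 18.3% ± 4.20, so that each differed from the unstimulated one by less than 1 SD of the stimulated libraries. In unstimulated control polysome RNA the PSMB9 share was 29.5% ± 3.00, and its highest library (33.8%) lay below the lowest input library (38.9%).

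Most subunit mRNAs made up a larger part of polysome RNA than of input RNA. Below, values are CPM, counts scaled to library size with TMM factors, and a log2 fold change is polysome over input. A member is called at an adjusted p under 0.05 in edgeR's quasi-likelihood test with Benjamini-Hochberg adjustment over all 16735 genes. In the unstimulated control line 37 of 46 members were higher in polysome RNA and 4 lower, where over all genes 17.4% were called higher and 22.8% lower. The counts were 34 and 4 in IL-13 control cells (16.7% and 22.6% of all genes), 35 and 4 in unstimulated knockdown cells (16.4% and 22%), and 35 and 4 in IL-13 knockdown cells (16% and 23.3%). The median member had a log2 fold change of 1.39, 1.42, 1.33 and 1.33 in these settings, and the median of all genes was -0.20, -0.19, -0.20 and -0.23. The members' share of all counts was 1.66% ± 0.0881 in polysome and 0.735% ± 0.0653 in input of unstimulated control cells. Both are shares of the RNA in a library, so that a higher value says nothing of the absolute amount on polysomes. Without both libraries of unstimulated control 1, 35 members were higher and 4 lower in that setting. With the libraries under 5000000 counts left out, 39, 37, 36 and 38 members were higher in the 4 settings in the order above and 4, 4, 3 and 4 lower. Shares over all genes for these sets of libraries are not given here.

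The same members were called across settings that share no library, though all were tested in 1 fit with the spread estimated over all 40 libraries. Of the members, 34 were higher in all 4 settings and 4 lower in all 4. The share of all genes called alike in all 4 is not given here. It cannot exceed 16% for higher and 22% for lower, the lowest shares of a single setting. PSMC2, PSMC6, PSMD2, PSMD9 and PSMD12 were called in none. PSMC1 and PSMD14 were called higher only in unstimulated control cells, and PSMD6 in every setting but IL-13 control (log2 fold change there 0.42 ± 0.22 (SE), adjusted p = 0.13); whether these settings differ was tested by the shifts below, where no member was called. With the libraries under 5000000 counts left out, PSMD14 also passed in IL-13 control (0.58, adjusted p = 0.046), unstimulated knockdown (0.66, adjusted p = 0.049) and IL-13 knockdown cells (0.82, adjusted p = 0.0077).

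All 14 genes of the constitutive 20S core were higher in polysome RNA in all 4 settings. PSMB1, a structural β subunit, was at 188, 159, 193, 209 and 224 CPM in unstimulated control input and at 631, 721, 792, 809 and 951 CPM in polysome RNA. Every polysome library was above every input library, and the log2 fold change was 2.00 ± 0.18 (SE; adjusted p = 2.1e-11 by edgeR). PSMB3, another structural β subunit, went from 280, 212, 242, 374 and 283 CPM to 845, 1187, 1002, 1309 and 1137 CPM, a log2 fold change of 1.98 ± 0.22. PSMA2, an α ring subunit, was at 130 CPM on average in input and 488 CPM in polysome RNA (log2 fold change 1.91 ± 0.22), and it had the largest value in knockdown cells, 2.03 ± 0.22 unstimulated and 1.91 ± 0.22 with IL-13. The catalytic subunits PSMB5, PSMB6 and PSMB7 had log2 fold changes of 1.77, 1.49 and 1.87 in unstimulated control cells. PSMA7, the member of highest input TPM in unstimulated control cells, had the smallest change of the core, 0.77 ± 0.16. Its input libraries were at 351 to 504 CPM and its polysome libraries at 634 to 847 CPM.

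The immunoproteasome genes differed among themselves. PSMB8 (log2 fold change 1.62 ± 0.17) and PSMB10 (1.71 ± 0.24) changed by about as much as the constitutive core. PSMB9 changed by 0.64 ± 0.22 (adjusted p = 0.017 by edgeR), from 129, 98.9, 106, 165 and 126 CPM to 169, 172, 174, 265 and 197 CPM, and all 5 polysome libraries lay above the input libraries by a narrow margin. In IL-13 control cells its log2 fold change of 0.75 fell to 0.41 (adjusted p = 0.092) without polysome library 2, which stood at 466 CPM where the others were at 169 to 234 CPM. In unstimulated control cells the PSMB9 call was lost without input library 2 (0.57, adjusted p = 0.053) or polysome library 4 (0.51, adjusted p = 0.074). In IL-13 knockdown cells (0.55 ± 0.22) it was lost without any one of input libraries 2, 3, 4 and 5 and polysome libraries 4 and 5 (0.43 to 0.55). There it was also lost with culture as a block (0.55, adjusted p = 0.051) and with the replicate number as a block (0.55, adjusted p = 0.056). With no filter beyond 1 count it was lost too (0.53, adjusted p = 0.095). In unstimulated knockdown cells (0.64 ± 0.22) it was lost with the libraries under 5000000 counts left out (0.62, adjusted p = 0.05).

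In the 19S particle the ATPases ranged from 0.05 (PSMC2) to 1.46 (PSMC5) and 4 of 6 were higher. Of the 11 non-ATPase subunits, 8 were higher and 1 lower in unstimulated control cells. The lid subunit PSMD13 (1.75 ± 0.17), PSMD7, the inactive partner of the lid deubiquitinase (1.70 ± 0.20), and PSMD4 (1.67 ± 0.16) had the largest values. PSMD14, the deubiquitinase itself, was at 0.61 ± 0.24 (adjusted p = 0.042), a call that was lost without any one of input libraries 1, 2, 4 and 5 or polysome libraries 1, 2 and 3 (0.41 to 0.61), and without both libraries of unstimulated control 1 (0.42, adjusted p = 0.22). It was also lost with the replicate number as a block (0.58, adjusted p = 0.065) and with culture as a block (0.46, adjusted p = 0.16). The 2 large scaffold subunits of the base differed: PSMD2 did not pass the test (-0.04 ± 0.24, adjusted p = 0.91), and PSMD1 was lower in polysome RNA. PSMD1 was at 78.5, 85.2, 129, 103 and 94.0 CPM in unstimulated control input and at 18.1, 33.0, 24.3, 12.7 and 3.34 CPM in polysome RNA. All its polysome libraries were below its input libraries, with a log2 fold change of -2.42 ± 0.55 (adjusted p = 0.00042 by edgeR). It was at 0 in 2 polysome libraries of the knockdown line, unstimulated 1 and IL-13 5, which are among the 3 of lowest depth, while the library of lowest depth, unstimulated knockdown 5, held 69 counts. Among the proteins that help assemble the 19S particle, PSMD10 (gankyrin) had a log2 fold change of 1.86 ± 0.23 and PSMD5 of 0.74 ± 0.16, and PSMD9 did not pass the test (0.47 ± 0.22, adjusted p = 0.092).

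The activators held the largest contrast. PSME2 was at 211, 118, 138, 155 and 156 CPM in input and 647, 558, 596, 580 and 641 CPM in polysome RNA, a log2 fold change of 1.96 ± 0.16 (adjusted p = 4.7e-12 by edgeR). PSME1 (1.83 ± 0.16), PSME3 (1.43 ± 0.15) and the inhibitor PSMF1 (1.48 ± 0.14) were also higher. PSME4 was at 26.6, 43.8, 42.6, 35.7 and 16.9 CPM in input and at 13.2, 9.18, 5.56, 0.27 and 0 CPM in polysome RNA. Its log2 fold change was -2.57 ± 0.71 (adjusted p = 0.0035), and the groups did not overlap. In unstimulated knockdown cells the PSME4 value was -1.86 ± 0.70 (adjusted p = 0.034), and it was -1.65 (adjusted p = 0.066) with the libraries under 5000000 counts left out and -1.56 (adjusted p = 0.076) without polysome library 1 alone. The call was also lost without polysome library 4 (-1.71) and without input library 1 (-1.83) or 5 (-1.80).

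The 20S chaperones split by complex. PSMG1 (0.93 ± 0.20) and PSMG2 (0.91 ± 0.13), which act as one heterodimer, were higher in polysome RNA in all 4 settings. PSMG3 and PSMG4, which form the other heterodimer, were lower in all 4. PSMG3 was at 56.5, 48.6, 44.8, 70.9 and 53.7 CPM in unstimulated control input and 20.1, 29.1, 24.9, 40.5 and 30.9 CPM in polysome RNA (log2 fold change -0.91 ± 0.21, adjusted p = 0.00047). PSMG4 went from 20.7, 18.9, 18.8, 24.1 and 18.5 CPM to 8.35, 11.0, 7.50, 12.8 and 9.92 CPM (-1.03 ± 0.19, adjusted p = 4.2e-05). For both genes every polysome library was below every input library.

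**Figure D2:**
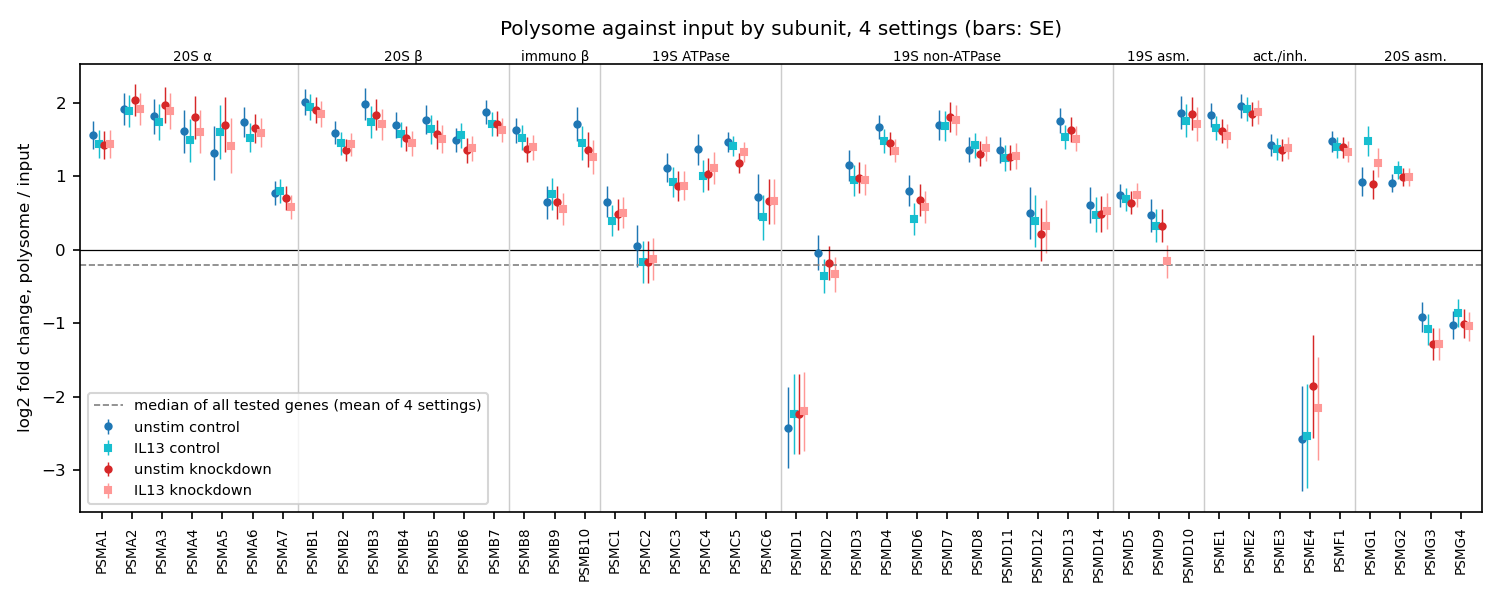
Log2 fold change of polysome over input for each of 46 members, grouped by role, in the 4 settings of line and treatment; bars are the standard error and the dashed line is the median of all tested genes, averaged over the settings. Members of the 20S core lie between 0.58 and 2.03, while PSMD1, PSME4, PSMG3 and PSMG4 lie below 0 in every setting.

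The members that were lower are at both ends of the range of coding length. Genes were split into 10 bins of near equal gene number by the coding length of GENCODE 29, which covered 80.3% of tested genes and all 46 members. In unstimulated control cells the all-gene median of the polysome log2 fold change was -0.28 in bin 1 (shortest), 0.66 in bin 3 and -1.74 in bin 10 (longest). PSMG3 (366 coding bases) and PSMG4 (369) are in bin 1, PSMD2 (2724) and PSMD1 (2859) in bin 9 and PSME4 (5529) in bin 10. The other members are in bins 2 to 6. Most members stood above genes of like coding length: the median member less its bin's median was 0.93, 0.83, 0.73 and 0.79 in the settings in the order above, with 40, 39, 38 and 38 of 46 members above. This subtraction was chosen after the data had been seen, and what part coding length has in the values was not tested.

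**Figure D3:**
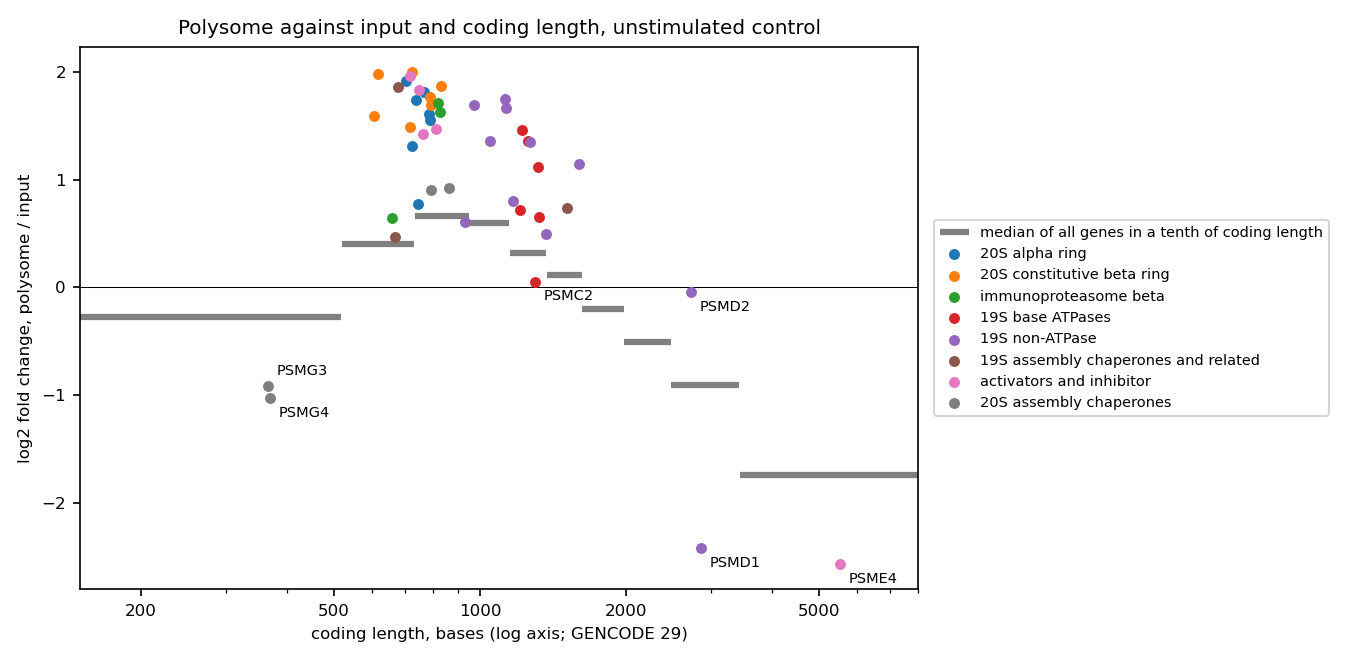
Log2 fold change of polysome over input in unstimulated control cells against coding length in bases (log axis), 1 point per member, coloured by role. Grey bars are the medians of all tested genes in 10 bins of coding length (the last bin runs beyond the axis). Of 46 members 40 lie above the bar of their bin, and PSMG3, PSMG4, PSMD1, PSME4 and PSMC2 are among those below.

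Other protein complexes and pathway genes give the same measure for comparison. Of the 9 genes of the COP9 signalosome, a relative of the 19S lid, 8 were higher in polysome RNA in unstimulated control cells and none lower, with a median log2 fold change of 1.16. Of the 8 genes of the CCT chaperonin, a complex of like stoichiometry, none was higher and 3 were lower (median -0.39). Among 28 other genes of the proteasome pathway 13 were higher and 7 lower (median 0.47), beside 17.4% higher and 22.8% lower over all genes. These included UFD1, a cofactor of the VCP unfoldase (1.79 ± 0.16), on the higher side, and UBA1, the ubiquitin-activating enzyme (-2.28 ± 0.17), and VCP (-2.24 ± 0.19) on the lower. The ubiquitin receptor ADRM1 (1.49 ± 0.20) was higher, and NFE2L1 was not called (-0.51 ± 0.36, adjusted p = 0.27). Of 14 genes of MHC class I presentation, 5 were higher and 4 lower, among the latter ERAP1, a peptidase that trims class I peptides (-2.65 ± 0.23). Of 25 interferon-stimulated genes 20 were tested, of which 4 were higher, a share near that of all genes, and 11 lower.

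IL-13 changed no subunit mRNA past the threshold. No member was called in input or polysome RNA of either line, where 0.0777% and 0.125% of all genes were called in control input and polysome and 0.0837% and 0.0956% in knockdown input and polysome. CISH, a feedback inhibitor of JAK-STAT signalling, rose by 4.01 ± 0.25 on the log2 scale in control input (adjusted p = 4.9e-14 by edgeR), so that a response to the cytokine was measured in the same libraries. At an unadjusted p under 0.05 there was 1 member in control polysome (PSMG2), where 860 of 16735 genes were, and none in the other 3, and the DESeq2 test and limma called none either. The median member was at 0.13 in control input and 0.11 in knockdown input, with 41 and 40 of 46 members above 0, where 49.5% and 51.0% of all genes were above 0. Members varied together from library to library within groups, as described below. Their signs, here and for the line, are therefore not separate observations. In polysome RNA the medians were 0.05 and 0.06, with 27 and 33 members above 0, where 49.4% and 46.5% of all genes were; the second was -0.00243 with limma. For 44 of 46 members in each of the 4 comparisons, the 95% interval lay within a 2-fold change in either direction, and PSMD1 and PSME4 were the exceptions.

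The members nearest to the threshold were small in effect. PSMG1 was at 20.6, 19.6, 17.1, 17.7 and 23.7 CPM in unstimulated control input and at 11.3, 13.2, 15.6, 20.7 and 15.1 CPM with IL-13. The groups overlapped only through IL-13 control 4, and the log2 fold change was -0.38 ± 0.19 (unadjusted p = 0.059, adjusted p = 1 by edgeR). PSMB2, a constitutive β subunit, had 0.25 ± 0.15 in the same comparison, and PSMA3 and PSMD9 had 0.27 ± 0.24 and 0.26 ± 0.22 in knockdown input. In polysome RNA the values were 0.26 ± 0.12 for PSMG2 and 0.30 ± 0.16 for PSMB6 in the control line, and 0.21 ± 0.16 for PSMD5 and 0.18 ± 0.16 for PSME2 in the knockdown line. The 3 immunoproteasome genes were at 0.18 to 0.33 in control input and at 0.05 to 0.25 in knockdown input. NFE2L1 was at -0.26 ± 0.36 in control input. No gene of the pathway, MHC class I, interferon, COP9 or CCT lists was called for IL-13 or for the line in either fraction.

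The lines did not differ past the threshold in any member. None was called in input, unstimulated or with IL-13, where 0.012% and 0% of all genes were called, nor in polysome RNA, where 0.0299% and 0.0896% were. The number of members at an unadjusted p under 0.05 was 0, 1, 1 and 4 of 46 in these comparisons, where 497, 502, 1242 and 1660 of all 16735 genes were, and DESeq2 and limma called none. The median of knockdown over control was -0.03 and -0.05 in input, with 17 and 14 of 46 members above 0 (47.7% and 49.0% of all genes), and each was slightly above 0 with limma (0.01 and 0.02). It was -0.15 and -0.10 in polysome RNA, with 10 and 15 members above 0 (46.3% and 46.4% of all genes; all-gene medians -0.03 and -0.04), and turned to 0.07 and 0.02 with the libraries under 5000000 counts left out, all of which are of the knockdown line. The 95% interval lay within a 2-fold change for 44 members in each input comparison and for 42 and 43 in polysome RNA.

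PSMG3 had the lowest adjusted p between the lines. In polysome RNA with IL-13 it was at 21.3, 45.2, 27.0, 17.6 and 27.5 CPM in the control line and at 18.1, 20.7, 13.5, 19.0 and 21.7 CPM in the knockdown line. The groups overlapped, and the log2 fold change was -0.59 ± 0.21 (adjusted p = 0.31 by edgeR). In unstimulated polysome RNA, the control libraries at 20.1 to 40.5 CPM and the knockdown libraries at 13.7 to 22.5 CPM gave -0.59 ± 0.21 (adjusted p = 0.38). The input values of PSMG3 with IL-13 gave -0.39 ± 0.21 (adjusted p = 1). PSMB6 was at 520, 592, 625, 355 and 423 CPM in control polysome RNA with IL-13 and at 439, 351, 365, 368 and 328 CPM in knockdown (-0.44 ± 0.17, adjusted p = 0.34). The groups overlapped. The others at an unadjusted p under 0.05 in that comparison were PSMG4 (-0.48 ± 0.20) and PSMD8 (-0.44 ± 0.17). PSMD8, a lid subunit, was at -0.28 ± 0.17, -0.40 ± 0.17 and -0.34 ± 0.17 in unstimulated input, IL-13 input and unstimulated polysome RNA, and PSME2 at -0.20 ± 0.16 in unstimulated input.

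**Figure D4:**
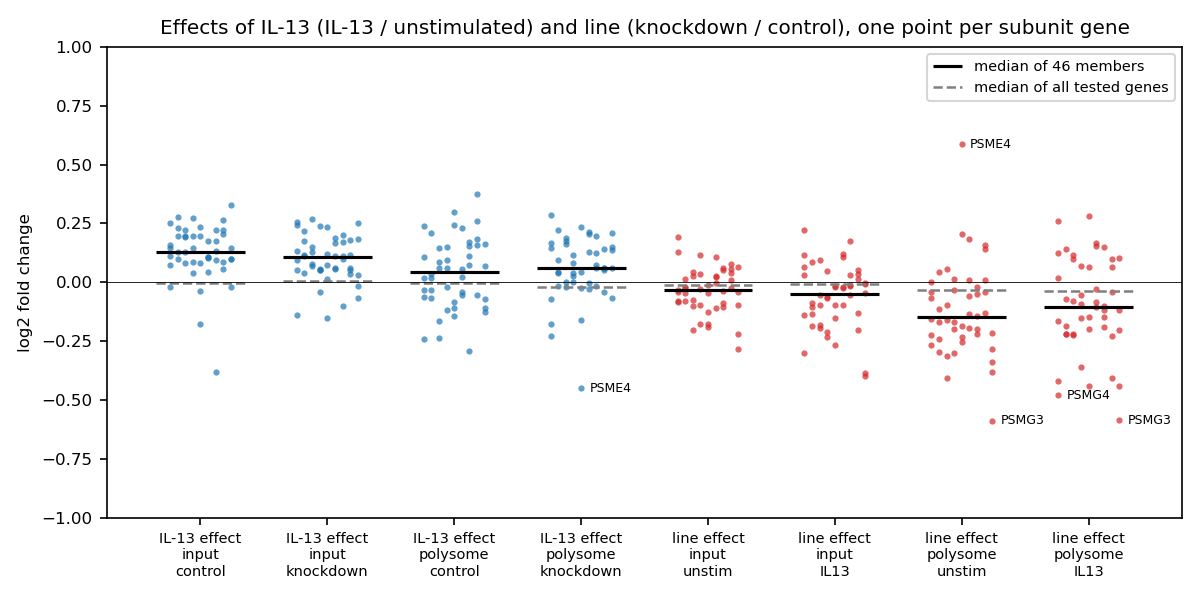
Log2 fold changes of the 46 members for IL-13 over unstimulated (blue) and knockdown over control (red), 1 point per member, in each fraction and line or treatment. Black bars are the medians of the members and dashed bars those of all tested genes; members beyond 0.45 are named. No point passed the test, and the medians run from -0.15 to 0.13.

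Tests of the differences of effects called no member either. The difference of IL-13 effects between the lines called 0% of all genes in input and 0% in polysome RNA. The nearest members were PSMG1 (0.28 ± 0.27) and PSMC5 (-0.18 ± 0.19) in input and PSMG4 (-0.41 ± 0.28) and PSMB9 (-0.42 ± 0.31) in polysome RNA. The shift of the line effect from input to polysome called 0% of all genes unstimulated and 0.00598% with IL-13, and the shift of the IL-13 effect 0% in both lines. The median member's shift of the line effect was -0.12 unstimulated and -0.04 with IL-13, and turned to 0.04 and 0.07 with the libraries under 5000000 counts left out. The median difference of IL-13 effects in polysome RNA turned from 0.02 to -0.06. PSMG1 had the largest shift with IL-13 in the control line, 0.55 ± 0.27 (unadjusted p = 0.052, adjusted p = 1), with polysome libraries at 27.6 to 52.6 CPM unstimulated and 34.9 to 48.3 CPM stimulated beside the input values above. PSMD6 was at -0.39 ± 0.31 in that comparison. In the knockdown line the shift of the IL-13 effect was -0.49 ± 0.32 for PSMD9 and 0.30 ± 0.28 for PSMG1. The shift of the line effect was -0.37 ± 0.29 for PSMG3 and -0.28 ± 0.19 for PSMC5 unstimulated and -0.49 ± 0.31 for PSMD9 and -0.29 ± 0.27 for PSMG1 with IL-13. The unadjusted p was under 0.05 for no member in any of these 6 comparisons, where 153 to 563 of 16735 genes were, and DESeq2 and limma called none.

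Within groups, the subunit mRNAs varied together from library to library. Correlations are Pearson's r of log2(CPM + 1) over the 20 libraries of a fraction, after the mean of each group was removed. They are given as a description, since all pairs share the same libraries and their depth. In input the median r over the 1035 pairs of members was 0.53 and 88.4% of pairs were above 0. Over all pairs of tested genes the median was 0.001, and over pairs of genes of at least 50 CPM it was 0.0655. Pairs within the 20S core had a median of 0.74, pairs within the 19S particle 0.56 and pairs between them 0.58. The immunoproteasome β genes had a median of 0.61 with the constitutive core. Leaving out each library in turn gave medians of 0.46 to 0.57.

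In polysome RNA the median over pairs of members was 0.24 (0.19 to 0.25 with each library left out), where all pairs gave 0.021 and pairs of at least 50 CPM 0.097. Pairs within the 20S core were at 0.57, pairs within the 19S particle at 0.28, pairs between core and particle at 0.22 and the immunoproteasome genes with the constitutive core at 0.0665. For comparison, the COP9 signalosome had medians of 0.25 in input and -0.14 in polysome RNA, and the CCT chaperonin 0.52 and 0.70. Over all pairs of members the median was thus close to that of CCT in input (0.53 and 0.52) and below it in polysome RNA. These pairs include activators and assembly chaperones. Pairs within the 20S core alone stood above CCT in input (0.74) and below it in polysome RNA (0.57). Pairs within the 19S particle were at 0.56 in input and 0.28 in polysome RNA. No test of these differences was made.

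The members did not take part equally. In input PSMB3 and PSMB7 had the highest median correlation with the other members (0.74 and 0.73), followed by PSMD13 (0.73). PSMD12 (-0.21), PSME4 (-0.02) and PSMD5 (0.00866) had the lowest. In polysome RNA PSMD13 (0.51) and PSMA1 (0.48) were highest and PSMB9 (-0.18) and PSMD12 (-0.17) lowest. Among single blocks seen in the heat map, the 3 immunoproteasome genes correlated in input with one another at 0.87 to 0.94, with PSMG3 at 0.85 to 0.94 and with PSMG4 at 0.86 to 0.92. In polysome RNA the same pairs were at 0.33 to 0.66, 0.32 to 0.67 and 0.40 to 0.60. The members whose promoter window held the motif named above had a median in input like those without it (0.55 and 0.55), and in polysome RNA the medians were 0.19 and 0.37.

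**Figure D5:**
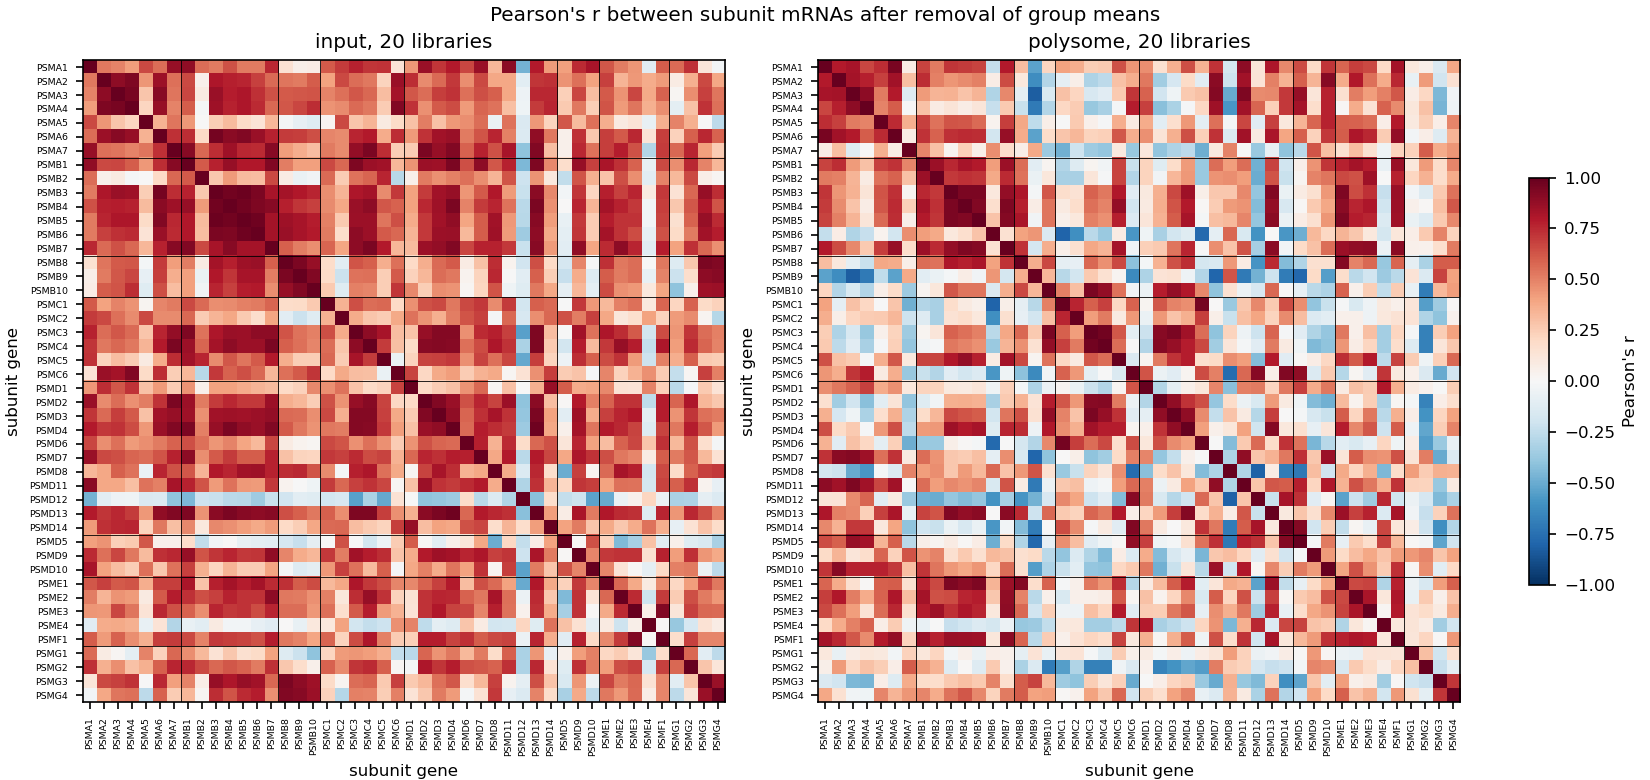
Pearson's r between each pair of 46 members over 20 input libraries (left) and 20 polysome libraries (right) after removal of group means, ordered by role; black lines separate the roles and the colour scale runs from -1 to 1. Red fills most of the input panel, where the median is 0.53, and the polysome panel is mixed, with a median of 0.24; PSMD12 is blue with many members in both.

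The members' mean deviation differed between libraries. In input, the mean member lay at -0.33 from the group mean on the log2 scale in IL-13 control 1, where 3 of 46 members were above it, at -0.28 in IL-13 knockdown 3 (2 of 46) and at 0.21 in IL-13 control 3 (40 of 46). In polysome RNA the mean was -0.32 and -0.22 in unstimulated knockdown 1 and 5 (10 and 13 of 46 members above the group mean) and -0.37 in IL-13 knockdown 5 (7 of 46), the 3 libraries of lowest depth. It was 0.34 in unstimulated knockdown 4 (40 of 46). The part of depth in these means was not tested. Outside the members, the genes that followed the mean of the members most closely in input were AURKB, a mitotic kinase (r = 0.97), NDUFA6, a subunit of respiratory complex I (0.96), TXN, thioredoxin (0.96), RTCB, the tRNA ligase (0.96), and PIMREG (0.96), over 20 libraries.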

How the data were processed

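The members and gene lists were chosen with earlier results of these data known. The deposited table gives TPM and estimated counts per gene and library for 62263 genes. Per the submitters' processing notes the tools were Trimmomatic, Salmon, MultiQC and DESeq2; the genome build and annotation are not given in the sources used here. Per the labels' protocols the libraries were poly(A)-selected and stranded, and the strand setting used in counting is not stated. The deposited TPM were used as given for levels between genes, and held 82.3% to 85.9% of a full sum per library. The deposited expected counts (19.7% of them not whole) were rounded to whole numbers. Genes were kept by filterByExpr, which retained at least 99.9% of counts, scaled by TMM and tested with edgeR 4.0.16 (R 4.3.3) in a quasi-likelihood fit of 8 group means over 40 libraries with 32 residual degrees of freedom. Benjamini-Hochberg adjustment ran over all 16735 genes in each of 18 comparisons. The script was tested on simulated counts. Alternatives used DESeq2 1.42.0, limma 3.58.1, other filters, sample sets and blocks, and each library left out in turn. Symbols came from a gene name table, which matched 62246 IDs and left 17 without a symbol.

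Genes were named by a rule. Members with a set role (catalytic and immunoproteasome β subunits, activators, inhibitor, PSMD4, PSMD14 and 20S chaperones) were named for levels. With NFE2L1, they were also named for polysome against input, with values mostly from unstimulated control cells. In each comparison up to 3 called members of largest change in each direction were added, or the 2 of smallest p where none was called. For levels the 3 highest and 3 lowest were added, for correlations the 2 highest and 2 lowest, with the 5 outside genes nearest to the member mean in input. Other members named in passing were chosen after their values were seen. No 2 libraries of a group agreed within counting noise: over 80 pairs the lowest chi-square per degree of freedom was 16.2.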

Additional observations from a re-analysis of the deposited data

Results flagged for a closer look

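In 9 of 232 groups of 5 libraries examined, 1 library lay far from the other 4; chance flags about 1 in 20 groups, which is 11.6 of 232. In input, PSMB6 was at 110.7 CPM in unstimulated knockdown 3 (others 145 to 153), and PSMC5 at 183 CPM in unstimulated control 2 (others 222 to 231). PSMD1 was at 128 CPM in IL-13 knockdown 2 (others 103 to 110). PSMD5 was at 61.0 CPM in unstimulated control 1 (others 88.3 to 92.9) and at 87.5 CPM in IL-13 knockdown 1 (others 101 to 103). PSMG2 was at 82.8 CPM in unstimulated knockdown 2 (others 65.1 to 69.9). In polysome RNA, PSMB9 was at 466 CPM in IL-13 control 2 (others 169 to 234), PSMC5 at 731 CPM in IL-13 control 3 (others 596 to 631) and PSMG4 at 12.2 CPM in IL-13 knockdown 2 (others 6.45 to 8.00). Leaving out some of these libraries ended calls of named members in polysome against input: PSMB9 without polysome IL-13 control 2, PSMB9 and PSMD14 without input unstimulated control 2, PSMD14 without input unstimulated control 1 and PSMB9 without input IL-13 knockdown 2. PSMD14 gained a call in IL-13 control cells without polysome IL-13 control 2 (0.63, adjusted p = 0.034).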

How the results depend on the processing

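The number of members called stayed within 1.5 times the reported one in all 18 comparisons and all alternatives run. It ran from 39 to 43 in unstimulated control cells (41 reported), 38 to 41 in IL-13 control cells (38), 38 to 42 in unstimulated knockdown cells (39) and 37 to 42 in IL-13 knockdown cells (39), with any library left out included, and was 0 in the other 14 comparisons. Of 2300 values of named members under alternatives, 2255 kept their direction and side of the threshold, 32 lost the call, 13 gained it and 0 turned round. The changes were of PSMB9, PSMD14 and PSME4. Single-library values that ended a call stand in the report. PSME4 in unstimulated knockdown cells also missed the threshold with DESeq2's Wald test (-1.77, adjusted p = 0.056) and with an offset for transcript length (-1.72, adjusted p = 0.057). PSMD14 passed it with limma in the 3 settings where edgeR did not call it (0.57, 0.49 and 0.51). In IL-13 knockdown cells it also passed with DESeq2's Wald test (0.61, adjusted p = 0.032), DESeq2 size factors, the length offset, only the libraries compared, and without polysome library 5. In unstimulated knockdown cells it passed with only the libraries compared (0.48). In unstimulated control cells it missed the threshold with only the libraries compared (0.64) and with no filter beyond 1 count (0.58). Replicate numbers did not pair libraries by the rule that every pair correlate above 0.1: the input and polysome libraries of one number correlated at -0.49 to 0.62, with 9 of 20 above 0.1 and 4 of 20 closest to their own number. Some pairs did correlate: in unstimulated control cells these were 0.59, 0.02, 0.62, 0.17 and 0.46, in knockdown input 3 of 5 pairs of unstimulated and IL-13 libraries were at 0.40 to 0.73, and 6 of 10 polysome pairs of control and knockdown were above 0.1. With the replicate number as a replicate block 40, 38, 39 and 38 members were called in polysome against input, and with culture as a replicate block 40, 38, 39 and 38. These counts and the ranges above join calls in both directions. The shares of all genes called under the same alternatives are not given here. The counts alone therefore do not show how the members compared with all genes there. The median of all genes in polysome against input was -0.20 in unstimulated control cells, -0.16 with DESeq2 size factors and 0 with no filter beyond 1 count, and the median member was then 1.44 and 1.34. In IL-13 knockdown cells the all-gene median went from -0.23 to -0.06, and the median member from 1.33 to 1.54, with the libraries under 5000000 counts left out. The highest over the lowest level was 116 by CPM per relative length. That length was taken from the deposited counts and TPM themselves, so the value cannot check the order or spread of the TPM. PSMD1 was at 0 in 2 polysome libraries under 5000000 counts; PSME4 was at 0 in the same 2 and in unstimulated control 5, which is deeper. The part of depth was not tested.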
